A study of Arabidopsis thaliana with 8 samples.

Results

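Transcript levels were compared between 2 lines of Arabidopsis thaliana, a laboratory line titled calcifuge and a wild ecotype titled low soil pH, at 1 and 12.5 mM CaCl2. The comparison used the 4 arrays with those titles, of 8 in the study, and the lab calcifuge array at each dose was set against the wild low soil pH array at the same dose. The other 4 arrays hold a lab calcicole and a wild ecotype from high soil pH at the same doses. They entered the estimate of the spread and a comparison with that second lab and wild pair. They also entered the choice of probe sets and the value added to each signal, which were set over all 8 arrays. RNA came from whole plants grown in a growth room in sterile sand with nutrient solution, on Affymetrix ATH1 arrays, and these conditions were shared by all 8 arrays. The labels give no accession name or genotype for any line, no plant age, and no number of plants behind an array. The wild line is labelled by its soil pH only, so its place in the lime-avoiding class beside the lab calcifuge is the grouping used here and not a label.

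Calcicole plants grow on chalk and limestone soils, and calcifuge plants avoid them. High calcium, high pH and the poor solubility of iron and phosphate come together in such soils, and plants answer with calcium-sensing proteins, iron uptake and changes to the cell wall. Natural lines of one species also differ in many transcripts that have no tie to soil, among them defence genes that are known to vary between accessions.

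Each line had 1 array at each dose, with no replicate inside a dose. A p-value for a line difference sets that difference against a spread between arrays. That spread is only how far the lines depart from 1 shared effect of CaCl2. The test of a difference in CaCl2 response used a fit with an added term, and its spread is what remains after that term. Values are signal intensities in arbitrary units. Differences are log2 values, lab calcifuge minus wild low soil pH, after adding 2.507 to each signal, with the standard error (SE) of a limma fit to all 8 arrays. Adding 2.507 understates the change of dim genes, and the threshold was an adjusted p under 0.05 over 13647 probe sets. The median signal was between 42.3 and 47.8 on the 8 arrays. The lines correlated with each other at 0.908 at 1 mM and 0.871 at 12.5 mM over these probe sets, and each line with itself at the other dose at 0.925 (lab calcifuge) and 0.931 (wild low soil pH).

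Leaf genes were bright in both lines. RCA, the activator of the carbon-fixing enzyme Rubisco, had signals of 4906 and 3534 in the lab calcifuge and 6387 and 4897 in the wild line, at 1 and 12.5 mM in that order here and throughout. PYK10, a beta-glucosidase of root endoplasmic reticulum bodies, had 247 and 830 against 228 and 329. Neither passed the threshold for a line difference. Of 9 root marker loci the array names 4 and the fit tested 2, PYK10 and AT5G17820, which had 60.2 and 65.8 against 7.07 and 38.6. The median line difference of these 2 was 1.22, and their part in the results below was not tested. The flower and seed markers on the marker lists are not named on this array in the annotation used here.

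The first question was which genes separated the lines at both doses. Of 13647 probe sets, 336 (2.46%) passed the threshold, 219 (1.6%) of them higher in the lab calcifuge and 117 (0.857%) lower. The 336 had the same sign at both doses and differed by 2-fold or more. In 211 of the 336 (62.8%) both lab calcifuge arrays lay outside all 6 other arrays, beside 14.8% of all probe sets tested. In 110 (32.7%) both wild low soil pH arrays did, beside 9.1% of all. The calls were made on these arrays, so the counts are descriptions. The same holds where the signals of the 2 lines are said below not to overlap for a called gene. Of the calls 167 name 1 gene, 16 name several and 153 have no name in the annotation used here. After removing second probe sets of a gene, 165 genes remained, of which 20 carry a symbol and 145 a locus number only.

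**Figure D1:**
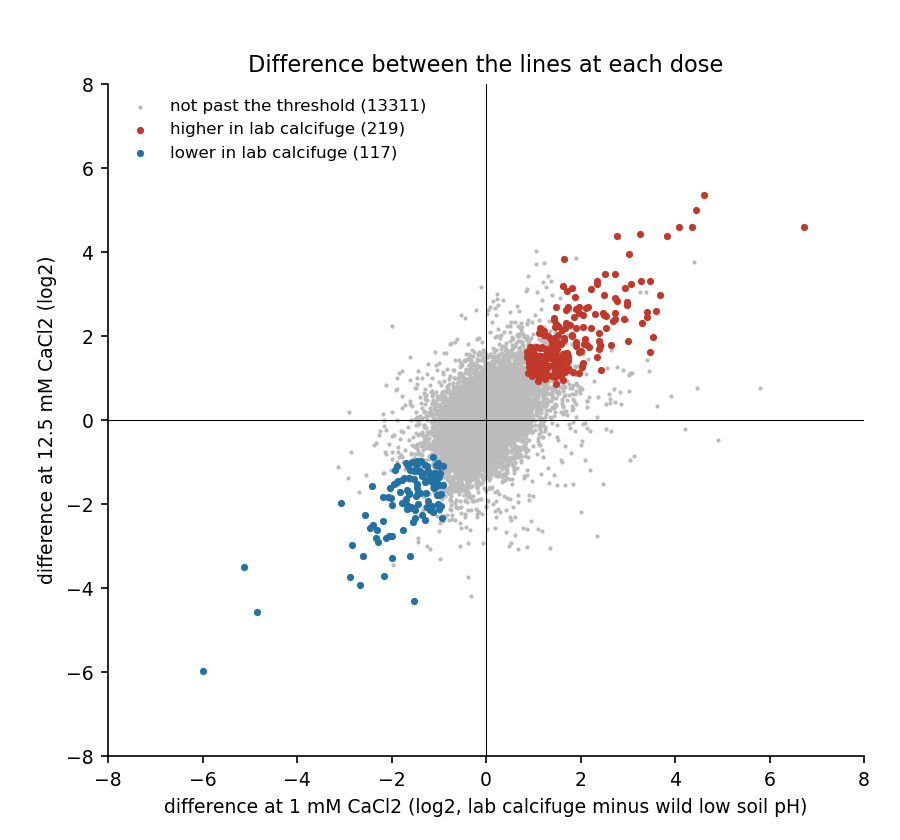
Each point is 1 of 13647 probe sets, with the log2 difference of lab calcifuge minus wild low soil pH at 1 mM CaCl2 on the x axis and at 12.5 mM on the y axis. The 219 probe sets past the threshold and higher in the lab calcifuge (red) lie in the upper right and the 117 lower ones (blue) in the lower left.

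The share of higher calls depended on the scaling. It was 65.2% as deposited, 55.9% (161 of 288) with each array centred on its median and 57.3% (217 of 379) after quantile normalization. The count rested most on the wild line: it was 17 without the wild low soil pH array at 12.5 mM, 42 without that at 1 mM, 53 without the lab calcifuge array at 12.5 mM and 220 without that at 1 mM. It was 213 without either lab calcicole array and 218 without either wild high soil pH array. Of 50 genes named below for this difference, 5 still passed without the wild low soil pH array at 12.5 mM, 11 without that at 1 mM, 15 without the lab calcifuge array at 12.5 mM and 25 without that at 1 mM.

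Of 7 plant defensin and thionin genes tested, PDF1.2b passed as higher in the lab calcifuge (1.6% of all probe sets) and THI2.2 as lower (0.857%). PDF1.2b encodes a plant defensin, a small antifungal protein induced through jasmonate and ethylene. Its signal was 1187 and 171 in the lab calcifuge against 99.9 and 41.7 in the wild line. The lowest lab value lay above the highest wild value, and the difference was 2.76 ± 0.52 or 6.76-fold (SE; adjusted p = 0.0422). It missed the threshold when any one of these 4 arrays was left out. The probe set is of a type that can also bind close relatives, and PDF1.2, the relative best known as a marker of that pathway, had 1065 and 309 against 48.1 and 20.6. Its difference of 4.08 ± 1.03 did not pass (adjusted p = 0.087, and 0.00722 to 0.286 over the alternatives).

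THI2.2, a thionin, which is another class of small antimicrobial peptide, went the other way. Its signal was 131 and 67.3 in the lab calcifuge against 953 and 543 in the wild line, and the groups did not overlap. The difference was -2.90 ± 0.39, or 7.48-fold lower in the lab calcifuge (adjusted p = 0.0177). It missed the threshold without either wild array or without the lab calcifuge array at 12.5 mM (adjusted p up to 0.106). The pattern-based list of plant defensins and thionins had 17 members on the array, and its 7 tested members had a median difference of 0.01, beside 0.02 over all probe sets tested. The other 5, PDF1.2 included, did not pass: PDF1A differed by 0.01, LCR69 by 0.57, LCR68 by -0.64 and PDF1B by -0.70. The jasmonate and ethylene defence list had 4 tested members, PDF1.2, PDF1.2b, THI2.2 and PYK10, with a median of 1.74, and the same PDF1.2b and THI2.2 were the ones that passed.

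ECS1, a cell wall protein whose gene lies near a locus for resistance to the bacterium Xanthomonas, was among the brightest genes that separated the lines. Its signal was 5909 and 4729 in the lab calcifuge against 735 and 1277 in the wild line. The lab calcifuge was higher at both doses, by 2.44 ± 0.44 or 5.44-fold (adjusted p = 0.0379). The lab calcicole had 1432 and 687, with 1692 and 806 for the high soil pH ecotype, so both lab calcifuge arrays stood above all 6 other arrays.

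The largest line differences fell on genes that the reference table gives only a locus number, and no role is stated for these. AT3G48640 had a signal of 9.28 and 2.73 in the lab calcifuge against 753 and 327 in the wild line, a difference of -5.99 ± 0.43 (adjusted p = 0.00272). AT3G47250 had 403 and 347 against 1.28 and 12.1, a difference of 5.66 ± 0.53 (adjusted p = 0.00591). For each of them one line had signals close to the value of 2.507 that was added, so the size of the difference depends on it.

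Ranks here are among probe sets that name 1 gene. Beyond the smallest of the 10 higher genes lay another 10 calls without a single gene name, the largest at 4.98, and beyond the smallest of the 10 lower genes another 7, the largest at -4.72. The other 9 of the 10 largest higher genes differed by 2.90 to 4.11. AT2G01090 had 237 and 231 in the lab calcifuge against 14.2 and 8.74. AT4G21650 had 29.9 and 61.4 against 2.21 and 0.567, both wild values under 2.507. AT1G35710 had 426 and 427 against 36.2 and 40.5, so that the arrays of one line differed little between doses. The remaining genes of that group were AT4G16710 (3.33), AT4G36210 (3.15), AT4G15390 (3.11), AT1G63880 (3.05), AT1G56300 (3.00) and AT2G21045 (2.90).

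AT4G36210 had the smallest adjusted p of these 10, 0.00226, at 300 and 371 against 33.6 and 37.2. It was the wild low soil pH ecotype that stood apart for this gene, since the lab calcicole had 320 and 388, with 337 and 292 for the high soil pH ecotype. AT1G63880 showed the reverse arrangement, with 156 and 227 in the lab calcifuge and 17.6 to 27.2 on the 6 other arrays.

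The other 9 of the 10 largest lower genes were THI2.2 and 8 genes known here by locus number, with differences from -2.45 to -3.31. AT5G55570 had 15.2 and 14.9 in the lab calcifuge against 127 and 231 in the wild line. AT1G64500 had 10.2 and 8.90 against 78.5 and 172. AT3G28270, the brightest of these 8 in the wild line, had 74.0 and 104 against 301 and 1040. No pair of these groups overlapped, which the choice of genes by large differences on these arrays makes likely. The remaining genes were AT2G29170 (-2.92), AT2G04790 (-2.58), AT5G15360 (-2.52), AT5G51890 (-2.51) and AT5G42760 (-2.45).

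**Figure D2:**
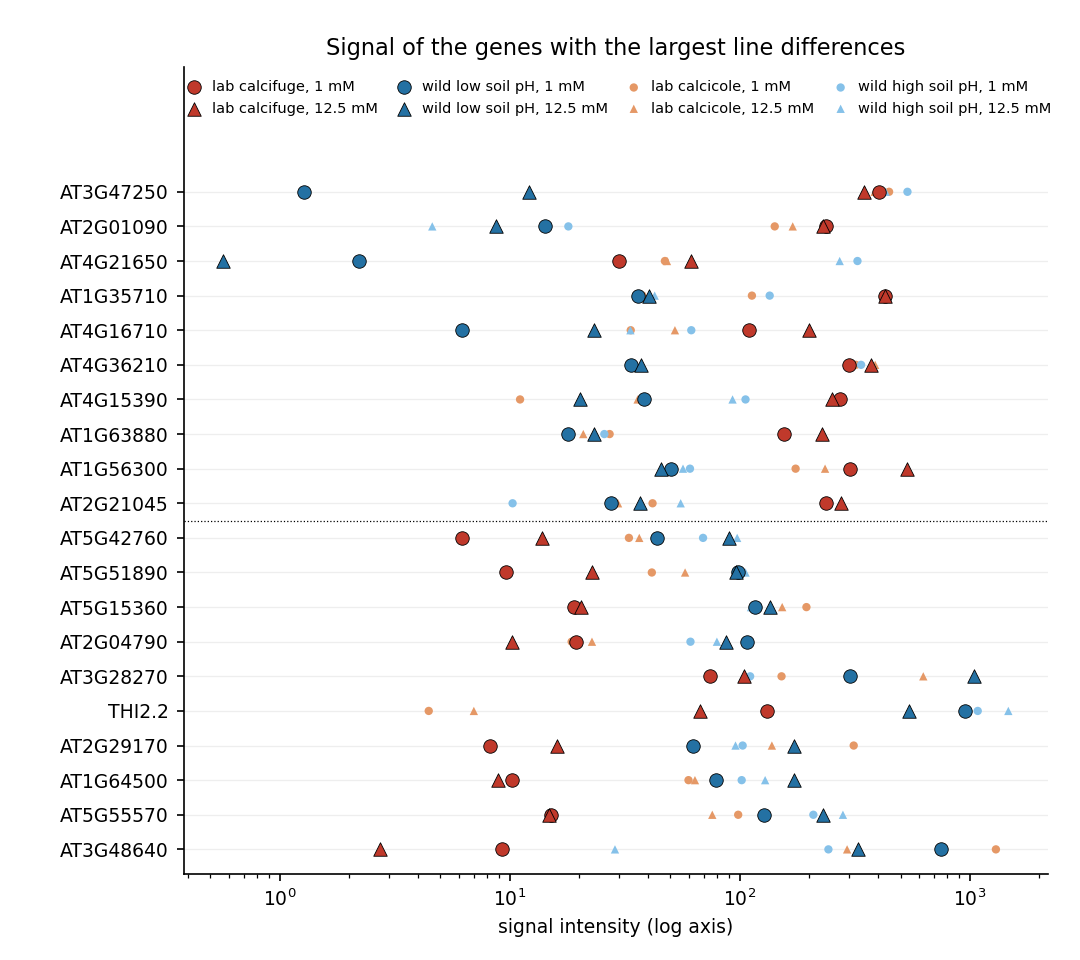
Signal intensity on a log axis for the 10 most different genes in each direction past the threshold, among probe sets that name 1 gene (above the dotted line, higher in the lab calcifuge; below it, lower), with circles for 1 mM and triangles for 12.5 mM CaCl2. In each row the 2 red and the 2 blue large symbols do not overlap, which the choice of genes makes likely. Small symbols are the other 2 lines, and AT4G21650 has both wild low soil pH signals under 2.507.

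A further view took genes whose signal was at least 20 on all 4 arrays, so that both lines gave a reading above the dimmest range. Among the 10 largest higher genes of that kind, those not yet named were AT4G02540 (2.66), AT5G44580 (2.57) and AT3G60300 (2.41). AT5G44580 had 598 and 685 in the lab calcifuge against 88.3 and 126. The 8 largest lower genes not yet named ran from -1.92 to -2.37. The brightest was AT2G25450, with 806 and 428 against 2296 and 2167, a difference of -1.92 ± 0.27 (adjusted p = 0.0209). The others were AT3G05730 (-2.37), AT5G15780 (-2.29), AT5G15950 (-2.19), AT1G50290 (-2.01), AT2G04570 (4.01-fold lower), AT1G78450 (-1.95) and AT3G44070 (-1.93).

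All 20 genes past the threshold that carry a symbol were also described, a set chosen after their values were seen; 14 were higher and 6 lower in the lab calcifuge. PDC2, a pyruvate decarboxylase of ethanol fermentation, had 268 and 378 in the lab calcifuge against 97.6 and 102, a difference of 1.65 ± 0.22 (adjusted p = 0.0175). The lab calcicole had 483 and 461, with 94.9 and 99.5 for the high soil pH ecotype, so the 4 lab arrays lay above the 4 wild arrays. UGT85A2, a UDP-glycosyltransferase, had 126 and 137 against 39.1 and 44.6, a difference of 1.60 ± 0.23 (adjusted p = 0.021).

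Among the other higher genes with a symbol, BIM1, a bHLH partner of the transcription factor that carries brassinosteroid signals, had 212 and 205 in the lab calcifuge and 49.6 to 77.7 on the 6 other arrays. BPC1, a factor that binds GA-rich DNA, differed by 1.18, and OBE1, a PHD-finger protein needed for meristems, by 1.08. SAE1A, a subunit of the enzyme that activates the small modifier SUMO, differed by 1.40. RALFL31, of the family of RALF signal peptides, differed by 1.12 and IQD22, of a family of calmodulin-binding proteins, by 1.01. The remaining ones were 2A6 (2.27), ZW9 (2.22), MSRB9 (1.19), a methionine sulfoxide reductase that repairs oxidised proteins, and NET4B (1.08), of a family of actin-binding proteins. BPC1, OBE1, RALFL31, IQD22, MSRB9 and NET4B each missed the threshold when any 1 of the 8 arrays was left out.

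The lower genes with a symbol included a cell wall enzyme and a sugar carrier. XTH32, a xyloglucan endotransglucosylase that cuts and rejoins wall polymers, had 303 and 291 in the lab calcifuge against 943 and 974, a difference of -1.68 ± 0.21 (adjusted p = 0.0141). It was the only one past the threshold among 13 tested of 27 expansin and xyloglucan endotransglucosylase genes named on the array, whose median was -0.10, where 0.857% of all probe sets passed as lower. SWEET11, a sucrose exporter of leaf phloem, had 170 and 139 against 353 and 414, a difference of -1.30 ± 0.23 (adjusted p = 0.0375). SWEET11 missed the threshold when any 1 of the 8 arrays was left out. SQN, a cyclophilin that promotes microRNA activity, differed by -1.68 and AFR, an F-box protein of far-red light signalling, by -1.65.

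Iron genes were of interest because iron supply is a main difficulty of lime soils. The list of iron uptake and storage held 28 loci, of which the array names 5 and the fit tested 4; 1 passed as lower, where 0.857% of all probe sets did, and the median difference was -0.91. PYE, a bHLH regulator of the iron-deficiency response, had 46.5 and 62.6 in the lab calcifuge against 102 and 155 in the wild line. It was lower in the lab calcifuge, with a difference of -1.18 ± 0.22 (adjusted p = 0.0393). It missed the threshold when any 1 of the 8 arrays was left out, with an adjusted p of 0.0566 to 0.244 in limma.

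AT1G47400, on the iron list, had 39.0 and 84.1 against 159 and 947, and its difference of -2.71 ± 0.63 did not pass (adjusted p = 0.0742). It passed without the lab calcicole line, and its adjusted p was between 0.0306 and 0.339 over the alternatives. bHLH104, a partner in the regulation of iron uptake, had 147 and 209 against 69.2 and 90.6 (1.12 ± 0.25, adjusted p = 0.0632). PYE and AT1G47400 had lower values in the lab calcifuge at both doses. bHLH104, which is not on the iron list, had higher values, and of these 3 genes only PYE passed. The other 2 iron genes tested, AT3G13610 and AT3G12900, differed by 0.69 and -0.65 and did not pass.

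Of 32 loci of calcium transport and sensing, the array names 8 and the fit tested 4, with a median difference of 0.32. None of the 4 passed, and with 2.46% of all probe sets past the threshold a count of 0 in so few genes does not set them apart. CML38, a calmodulin-like calcium sensor, had 124 and 67.5 in the lab calcifuge against 71.0 and 14.4 in the wild line, a difference of 1.41 ± 0.54 (adjusted p = 0.191). CML42 and CML43 differed by 0.27 and 0.24, and the glutamate receptor-like channel gene GLR2.7 by 0.37.

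None of the members tested passed in the lists of hypoxia (7 tested, median 1.07), salicylic acid defence (4, median 0.46), glucosinolates (4, median -0.61), cold and drought (5, median 0.13) and nuclear photosynthesis genes (4, median -0.39). All 7 hypoxia members had positive differences, from 0.03 to 3.15. The widest were 3.15 ± 1.55 for AT4G39675 (3.25 at 1 mM, 3.05 at 12.5 mM) and 2.21 ± 1.18 for AT1G19530 (2.63 and 1.79). These errors are from the fit to all 8 arrays, and the other 2 lines responded to CaCl2 in the opposite direction. For AT4G39675 the responses were -1.56 (lab calcifuge), -1.36 (low soil pH ecotype), 5.54 (lab calcicole) and 2.68 (high soil pH ecotype). For AT1G19530 they were -1.45, -0.61, 3.38 and 3.48, in the same order. The direction of the line difference was not particular to this pair. The same 7 genes also had positive differences for lab calcicole minus wild high soil pH, from 0.49 to 1.86. Among larger families, UDP-glycosyltransferases had 1 of 22 tested past the threshold, UGT85A2, and the cytochrome P450s 0 of 10, beside 2.46% of all probe sets, so neither count sets its family apart. No tested member passed among the glutathione transferases (8 tested), WRKY factors (6), genes that the reference table names or describes as bHLH (6, not counting BIM1 and PYE, which that list did not hold), histones (6), lectins and jacalins (5) and class III peroxidases (3). The other lists with tested members, of 1 or 2 genes each, also had none past the threshold. At 2.46% over all probe sets, a count of 0 in lists of these sizes is near the background.

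The second question was whether the lines differed by the same amount at each dose. At 1 mM 1107 probe sets (8.11%) were 2-fold or more apart, and at 12.5 mM 1830 (13.4%). The same way at both doses were 513 (3.76%), of which 350 were higher in the lab calcifuge and 163 lower, and 28 were 2-fold apart in opposite ways. The median absolute difference was 0.31 at 1 mM and 0.39 at 12.5 mM. With 1 array per line and dose these counts carry no test.

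The third question was whether CaCl2 acted differently on the lines. In the lab calcifuge 435 probe sets (3.19%) were at least 2-fold higher at 12.5 mM and 416 (3.05%) lower. In the wild low soil pH ecotype 403 (2.95%) were higher and 470 (3.44%) lower. Both lines shared 94 of the higher and 98 of the lower ones. Another 8 were higher in the lab calcifuge and lower in the wild line, and 19 the other way round. The limma test of the difference in response called 0 of 13647 (0%), with 699 at an unadjusted p under 0.05, where 682 would be expected with no difference at all. The smallest adjusted p was 0.485. On simulated data this test recovered 0% of differences at 2-, 4- and 16-fold, so the values that follow are descriptions.

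The chloroplast's own genes had the widest gap between the median responses of the lines among the lists with 4 or more tested genes. The plastid genome encodes core subunits of the photosystems, the cytochrome b6f complex, ATP synthase and the NADH dehydrogenase-like complex, and parts of the plastid's RNA polymerase and ribosomes. All 69 plastid-encoded genes named on the array were tested. At 12.5 mM 39 of the 69 were at least 2-fold lower than at 1 mM in the lab calcifuge, where the share over all probe sets was 3.05%. In the wild low soil pH ecotype it was 1 of 69 (3.44% of all), in the lab calcicole 11 (4.15%) and in the wild high soil pH ecotype 0 (3.07%). The median response was -1.38 in the lab calcifuge, 0.20 in the wild low soil pH ecotype, -0.61 in the lab calcicole and 0.19 in the wild high soil pH ecotype, beside medians of -0.03 to 0.06 over all probe sets. Lower at 12.5 mM by any amount were 63 of the 69 in the lab calcifuge and also 63 in the lab calcicole. In the wild low and high soil pH ecotypes it was 26 and 5.

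**Figure D3:**
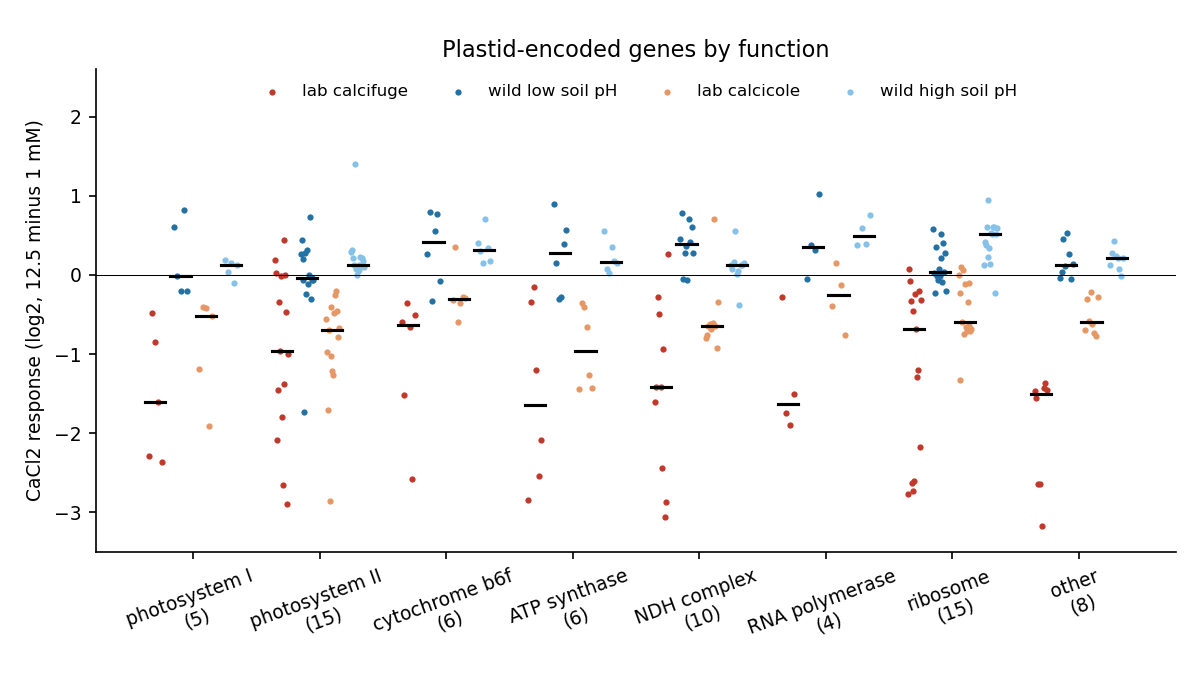
CaCl2 response (log2, 12.5 minus 1 mM) of the 69 plastid-encoded genes, grouped by function with the number of genes in brackets; each point is a gene, each colour a line and each bar the median. The lab calcifuge (red) reaches down to -3.17, and the wild low soil pH ecotype (dark blue) lies between -1.73 and 1.02.

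At 1 mM the plastid genes of the lines were close, with a median difference of 0.26, and 21 of 69 were lower in the lab calcifuge. At 12.5 mM the median was -1.18 and 61 of 69 were lower, 38 of them at least 2-fold (5.92% of all probe sets). None passed the test of the line difference, and their smallest adjusted p for a different response was 0.922. Each response rests on 1 array at each dose, and the low values are those of the lab calcifuge array at 12.5 mM. In RNA from whole plants, fewer plastids or green cells, less RNA per plastid and an effect of that 1 array cannot be told apart. The list of mitochondrion-encoded genes matched 0 genes, so whether the pattern is particular to plastids was not tested. Mitochondrial genes seen by name were mixed. Differences at 1 and 12.5 mM were 0.67 and -0.87 (nad4), -0.06 and -1.43 (ccb382) and -0.26 and -0.29 (nad6). They were 0.40 and 1.53 for nad9, 0.63 and 0.37 for cox2 and 0.73 and 0.57 for ccb452.

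Every functional group of plastid genes had a lower median response in the lab calcifuge than in the wild line. For the 4 RNA polymerase genes the medians were -1.62 and 0.35, for the 6 ATP synthase genes -1.64 and 0.27, and for the 10 NADH dehydrogenase-like genes -1.41 and 0.39. For the 5 photosystem I genes they were -1.61 and -0.02. The groups were nearest in the 15 ribosomal protein genes, at -0.68 and 0.04, and in the 15 photosystem II genes, at -0.96 and -0.04.

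Single genes ranged widely within these groups. accD, a subunit of the enzyme that starts fatty acid synthesis, went from 1179 to 129 in the lab calcifuge and from 549 to 795 in the wild line. rbcL, the large subunit of Rubisco, went from 846 to 133 against 742 to 799, and psbA, a reaction-centre protein of photosystem II, from 3788 to 509 against 1888 to 1796. Genes with little difference in the lab calcifuge included psbM, at 5578 and 5531, and atpB, at 6675 and 6028. The highest signals on these arrays were 7564 and 6694, and whether differences shrink at such signals was not tested. The same complexes held genes with large and with little difference. Beside atpB, atpI, another ATP synthase subunit, went from 281 to 36.9. Of the NADH dehydrogenase-like genes, ndhJ went from 1325 to 157 and ndhC from 1762 to 2115.

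Nuclear genes for photosynthesis had smaller responses on these arrays. The 4 tested had a median response of -0.46 in the lab calcifuge, where PSAE-1, a photosystem I subunit, went from 4016 to 2624, and LHCB4.1, an antenna protein, from 4374 to 3208. In the wild line they went from 3735 to 3454 and from 5098 to 4501. None of the 4 was at least 2-fold lower in the lab calcifuge.

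Genes of the anthocyanin and flavonoid list, some of which make the red pigments of stressed leaves, had higher signals at 12.5 mM in both lines. Of 8 tested, 7 were at least 2-fold higher in the lab calcifuge (3.19% of all probe sets) and 5 in the wild line (2.95%), with medians of 2.43 and 1.09. In the second pair it was 6 in the lab calcicole (3.28%) and 3 in the wild high soil pH ecotype (1.02%), with medians of 1.49 and 0.84. DFR, which makes the colourless precursor, went from 484 to 2351 in the lab calcifuge and from 379 to 858 in the wild line. UGT78D2, a flavonoid glucosyltransferase, went from 135 to 824 against 240 to 352, the widest difference of the 8, at 2.04 ± 0.65. All 8 responses had larger values in the lab calcifuge, by 0.15 to 2.04, and none passed. At 1 mM the list's median difference was -0.66 and at 12.5 mM 0.54.

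**Figure D4:**
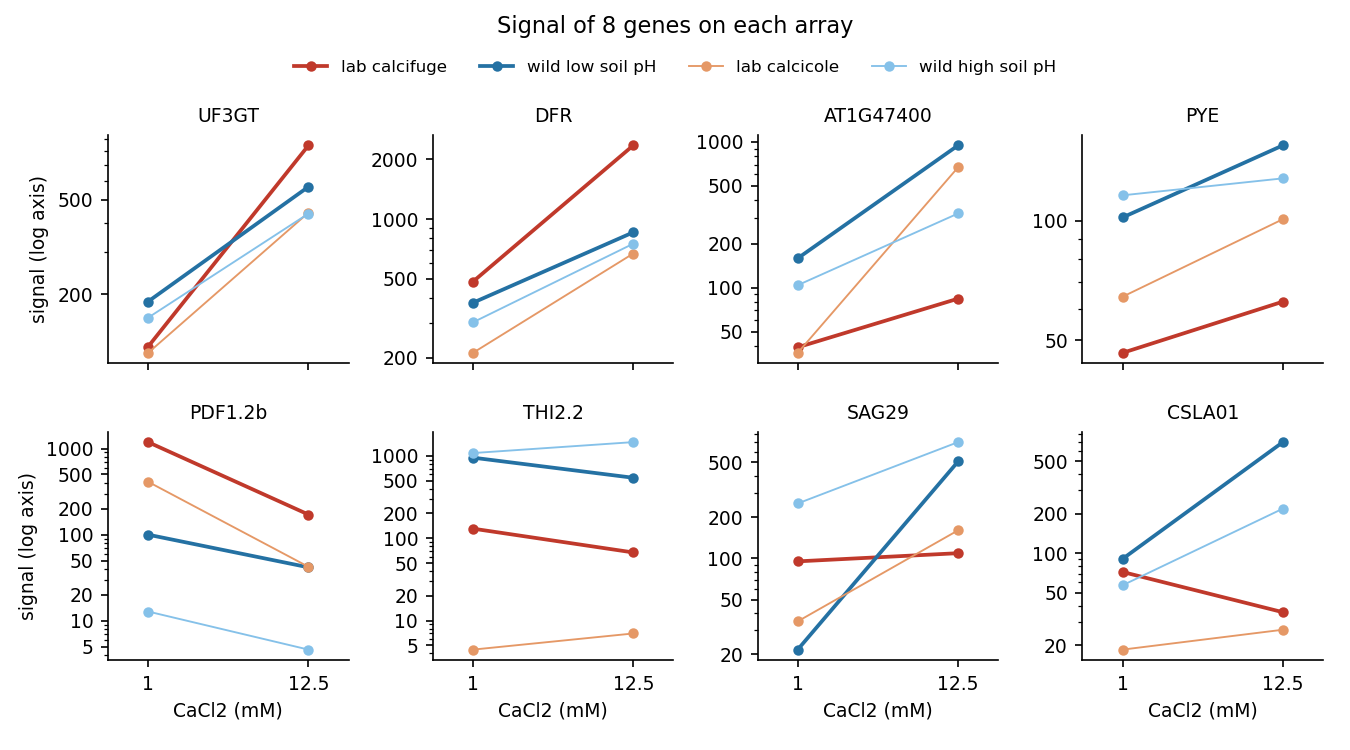
Signal (log axis, its range set for each gene) at 1 and 12.5 mM CaCl2 for 8 genes, 1 array per point, with a line for each plant line. UF3GT and DFR are anthocyanin genes, AT1G47400 and PYE are on the iron list, PDF1.2b and THI2.2 are defence peptides, and SAG29 and CSLA01, not past the threshold, have different responses in the lab calcifuge (red) and the wild low soil pH ecotype (dark blue).

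The genes with the smallest p for a different response, none past the threshold, included a sugar carrier of senescing leaves, SAG29. It had 95.0 and 109 in the lab calcifuge against 21.6 and 508 in the wild line, a difference in response of -4.21 ± 0.55 (adjusted p = 0.485). CSLA01, of a family of enzymes that make wall mannans, had 72.0 and 35.6 against 90.4 and 698 (-3.89 ± 0.71). Of these 4 arrays, the wild low soil pH array at 12.5 mM was the high one for both genes. SAG29 also had higher values at 12.5 mM in the lab calcicole, at 34.7 and 160, and in the wild high soil pH ecotype, at 251 and 703. For CSLA01 the lab calcicole had 18.5 and 26.2, with 57.0 and 218 for the high soil pH ecotype.

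The others of that direction were AT3G28220 (-4.42), AT1G09500 (-3.21), AT5G05600 (-2.54) and AT2G41250 (-1.98). AT3G28220 had 927 and 113 in the lab calcifuge against 359 and 954, so the lines crossed between the doses. In the other direction EXPB2, a beta-expansin, which loosens cell walls, had 39.4 and 126 in the lab calcifuge against 43.6 and 30.4 (2.10 ± 0.40). The remaining 5 were AT2G30780 (3.10), AT4G27654 (2.97), AT2G13440 (2.93), AT2G20550 (2.59) and AT1G72230 (2.06).

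The last question was whether this lab and wild pair differed in the way that the wild ecotype from high soil pH and the lab calcicole did, which uses 4 separate arrays. In that second pair 1277 probe sets (9.36%) passed. The lists shared 118, which is 35.1% of the calls of the first pair and 9.2% of those of the second, and 101 of the 118 had the same sign. Over all probe sets 9.36% passed in the second pair and 2.46% in the first. Both differences come from 1 fit and share its error for each probe set, so the overlap is a description. Of the 336 calls of the first pair, 161 (47.9%) had the 4 lab arrays apart from the 4 wild arrays. The share over all probe sets tested was 16.1%, and the call fixes that arrangement in part. The difference between the 2 lab minus wild differences passed for 158 probe sets (1.16%), 107 higher and 51 lower in the first pair, and 62 of the 336 calls were among them. Leaving out 1 array gave 12 without the wild low soil pH array at 12.5 mM, 22 without the wild high soil pH array at 12.5 mM, 26 without the wild low soil pH array at 1 mM and 44 to 74 without each of the others.

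AT2G01090 and PDC2 were higher in both lab lines, with AT2G01090 at 142 and 170 in the lab calcicole against 18.0 and 4.61 in the wild high soil pH ecotype. PDF1.2b was also higher in the lab calcicole, by 3.71. THI2.2 was lower in both lab lines but with a difference of -7.28 in the second pair, at 4.45 and 6.99 in the lab calcicole against 1083 and 1471, and the difference between the pairs of 4.38 passed (adjusted p = 0.0199).

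Some genes turned round between the pairs. AT3G44630 had 115 and 136 in the lab calcifuge against 35.8 and 28.8 in the wild low soil pH ecotype, but 7.75 and 7.58 in the lab calcicole against 42.1 and 44.3. Its difference between the pairs was 4.05 (adjusted p = 0.00454). AT2G47390 had 202 and 174 against 421 and 477, but 382 and 393 against 171 and 213, and its difference between the pairs was -2.26 (adjusted p = 0.0231).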

How the data were processed

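RNA of whole plants of 4 lines at 2 CaCl2 doses was read on 8 ATH1 arrays. The authors deposited one signal intensity for each probe set, computed with MAS5 per the submitters' processing notes; its version and settings are not given in the sources used here. They are linear and already scaled, since the mean without the lowest and highest 2% was 100.0 on each array. Detection calls were not used. The number of arrays limits the precision, and array probes match the Columbia reference, so signal also depends on each line's sequence, which was not tested.

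From 22810 probe sets, 64 controls and the dimmest 40% by mean log2 value were removed. The added 2.507 is the 10th percentile of the values. The fits were made in R 4.3.3 with limma 3.58.1 and Benjamini-Hochberg adjustment over 13647 probe sets: line plus dose (3 residual degrees of freedom), and for the response difference an added term (2 residual degrees of freedom). A probe set got a name where the platform table gives 1 gene (symbols from TAIR10.1). The members and lists were chosen with earlier results of these data known. The 38 lists hold loci or symbol patterns; 27 had a tested member, and some patterns were corrected after seeing the matches. The array names 63 of 337 listed loci, and 52 were tested.

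Genes were named from probe sets that name 1 gene only, which leaves out 153 unnamed calls and 16 that name several. For the line difference they were the 10 largest each way past the threshold, and the 10 largest each way with a signal of at least 20 on all 4 arrays. For the response difference they were the 6 with the smallest p each way, with a highest signal of at least 50, and between pairs the 5 largest each way that passed both tests. On simulated data with 200 changed genes of 13647, the line difference test recovered 0% at 2-fold, 70% at 4-fold and 96% at 16-fold. Other settings tried were the scaling, the added value, the filter, the variance model, the threshold, the probe set types, the dose term and leaving out arrays or lines. Roles given to genes are general knowledge. Figures used matplotlib 3.10.9.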

Additional observations from a re-analysis of the deposited data

Results flagged for a closer look

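The lab minus wild difference of the calcifuge and low soil pH pair differed from that of the calcicole and high soil pH pair at 158 probe sets, by a limma contrast of the 2 differences. Of the genes named for it, 5 had the larger lab minus wild value in the first pair: AT4G21650 by 6.16, AT3G47250 by 5.87, AT4G15390 by 5.27, THI2.2 by 4.38 and AT3G44630 by 4.05. AT4G21650 had 325 and 272 in the wild high soil pH ecotype, against 2.21 and 0.567 in the wild low soil pH ecotype. For AT3G47250 the low soil pH ecotype alone was dim, with 347 to 536 on the 6 other arrays.

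The other 5 had the smaller lab minus wild value in the first pair: AT3G48640 at -8.81, AT3G28270 at -4.14, AT5G15360 at -3.11, AT2G47390 at -2.26 and AT5G19100 at -1.67. AT5G15360 had 19.0 and 20.4 in the lab calcifuge and 112 to 195 on the 6 other arrays. AT5G19100 had 137 and 101 in the wild low soil pH ecotype and 33.6 to 43.2 on the others.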

How the results depend on the processing

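The count of 336 for the line difference moved by over 1.5 times to 164 with no dose term, 53 with no filter, 976 at an adjusted p under 0.1, 213 with the lab calcicole line left out and 218 with the high soil pH ecotype left out, and was between 17 and 220 when 1 array was left out. Under the other alternatives it was 232 (only the 4 arrays of the pair) to 458 (16 added in place of 2.507). The count of 158 between the pairs became 74 with no dose term, 13 with no filter and 354 at an adjusted p under 0.1, and was between 12 and 74 when 1 array was left out. With fewer arrays fewer degrees of freedom remain; for the filter the cause was not tested. The response difference stayed at 0 under the 16 alternatives that could be run. It could not be run without an array of the pair, and the contrast between pairs could not be run with a line left out. Of 1030 values of 50 named genes for the line difference, 733 kept their call, 297 lost it and 0 reversed; between pairs 120 of 176 kept it and 56 lost it. Median centring and quantile normalization left the plastid response at -1.45 and -1.23 in the lab calcifuge, against 0.29 and 0.22 for the low soil pH ecotype. No paired analysis by replicate number was possible because every label gives replicate 1; the dose term matched arrays by dose, and the count of 164 is the one without it.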
